A study of Homo sapiens with 22 samples.

Results

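Haem breakdown and cellular iron handling were followed through 10 genes named by their function: HMOX1, HMOX2, BLVRA, BLVRB, FTH1, FTL, TFRC, SLC40A1, ACO1 and IREB2. Members were matched by gene symbol in a table of 34679 genes, a step that did not use their values. Their choice was made with earlier results of these data known. Of the 10 genes, 9 were measured and all 9 of these passed the filter on low counts, while FTL was not analysed here. Polyadenylated RNA was sequenced from LUHMES cells, a conditionally immortalised human mesencephalic line, which the design text describes as differentiated. The 22 libraries came from wild-type cells left untreated (4 libraries), wild-type cells given 6-hydroxydopamine (6-OHDA, 4 libraries), cells overexpressing alpha-synuclein left untreated (4 libraries), and alpha-synuclein cells given 6-OHDA alone (4 libraries), 6-OHDA with quercetin (3 libraries) or 6-OHDA with rutin (3 libraries). 6-OHDA is a dopamine analogue that oxidises readily and is used to build cell models of Parkinson disease, and the compounds were added to test for protection of the neurons. All groups are the same cell line, and the promoter of the transgene, the number of clones, and the doses and times of treatment, are not given in these sources.

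Haem oxygenase opens the haem ring and releases iron, carbon monoxide and biliverdin, and biliverdin reductases turn biliverdin into bilirubin. Freed iron can be stored in ferritin or leave the cell through ferroportin (SLC40A1), and new iron enters with transferrin through the transferrin receptor (TFRC). When iron is scarce, the iron regulatory proteins ACO1 and IREB2 bind hairpins called iron-responsive elements: in the 5′ untranslated region (UTR) of an mRNA they hold back translation, and in the 3′ UTR of TFRC mRNA they slow its decay. HMOX1 is the inducible haem oxygenase, repressed by BACH1 and activated by NFE2L2 (NRF2), whereas HMOX2 is known as the constitutive form of brain. Iron accumulation in the substantia nigra is a known feature of Parkinson disease.

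Matches to a pattern of the iron-responsive element in the measured genes are shown because such elements tie storage, import and export to the same pair of sensors. The pattern is strict and can miss elements that pair less fully. Transcripts of GENCODE 29 on GRCh38 were searched on their own strand for the 6-base loop CAGTGN flanked by 5 bases on either side that can pair (G-U pairs allowed), with a C just upstream of the first 5. Capitals mark the loop, each sequence is the DNA strand of the mRNA, and a match is a description of the letters and not a measured binding site.
FTH1, 5′ UTR, chr11:61967575-61967604, minus strand: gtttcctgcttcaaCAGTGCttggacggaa
SLC40A1, 5′ UTR, chr2:189580662-189580691, minus strand: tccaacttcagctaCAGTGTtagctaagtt
TFRC, 3′ UTR site 1, chr3:196050980-196051009, minus strand: ataattatcggaagCAGTGCcttccataat
TFRC, 3′ UTR site 2, chr3:196050576-196050605, minus strand: cacattatcgggagCAGTGTcttccataat
TFRC, 3′ UTR site 3, chr3:196050511-196050540, minus strand: gtctgtatcggagaCAGTGAtctccatatg
TFRC, 3′ UTR site 4, chr3:196050464-196050493, minus strand: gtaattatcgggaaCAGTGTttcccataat
The pattern stood in the 5′ UTR of 21 of 19659 searched transcripts (0.107%) and in the 3′ UTR of 104 (0.529%). HMOX1, HMOX2, BLVRA, BLVRB, ACO1 and IREB2 held 0 matches in the transcript searched.

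Library totals ran from 1.87 to 20.67 M estimated counts (M, mega), and levels are given as CPM, the counts of a gene for every M counts of the scaled library size. Neuronal markers summed to 9543 to 12342 CPM in untreated and 3575 to 6569 CPM in treated libraries, and 7 of 8 fell in wild-type and 6 in alpha-synuclein cells, while TUBB3 rose in both. Dopaminergic markers summed to 343 to 444 and 78.0 to 169 CPM, most of it TH, which fell from a mean of 374 to 126 CPM in wild-type and from 348 to 67.3 CPM in alpha-synuclein cells. Of their 6 tested genes 1 rose (NR4A2, from 8.29 to 25.1 CPM in wild-type cells), 1 fell and 4 were not called in wild-type cells, and 1 rose and 3 fell in alpha-synuclein cells. FOXA2 and PITX3, which define midbrain dopaminergic neurons, were at 0 counts in all 8 untreated libraries. In bulk RNA, fewer cells of a type and less RNA per cell cannot be told apart. Library names place the alpha-synuclein groups given 6-OHDA on sequencing lane 2 and the other groups on lane 1, so lane and group cannot be told apart for 6-OHDA in alpha-synuclein cells, for alpha-synuclein under 6-OHDA and for the interaction of both. Alpha-synuclein 6-OHDA replicate 4 stood apart: its first principal component (40.8% of variance) was -1.5, against 35.8 to 45.3 in the other treated and -76.4 to -53.5 in the untreated libraries.

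After 6-OHDA, haem oxygenase 1, biliverdin reductase B, ferritin heavy chain and the transferrin receptor rose together in both genotypes, and the iron sensor ACO1 fell. In wild-type cells 5 of the 9 measured members passed the test, 4 higher and 1 lower, where 52% of all 16601 tested genes were called (25.8% higher, 26.2% lower). In alpha-synuclein cells 7 of 9 passed, 6 higher and 1 lower, against 47.1% of all genes (22.9% higher, 24.2% lower). Given these backgrounds the counts alone set the members little apart, and the sizes below carry the description. The members' median log2 fold change was 0.82 in wild-type and 0.77 in alpha-synuclein cells, against 0.07 and 0.05 over all tested genes. With 9 members, each median is the value of BLVRA, which was called in neither genotype. Its wild-type value ran from 0.37 to 1.25 with a replicate left out, so the medians say little about the members as a set. Upper-quartile scaling moved the median of all genes by 0.14 and 0.12 on the log2 scale and the share of calls that were higher from 49.5% to 59.7% and from 48.6% to 61.0%. It changed the direction of no member's call. Calls use the quasi-likelihood test of edgeR, Benjamini-Hochberg adjusted over all tested genes, at 0.05. The labels do not say whether libraries of a group are separate cultures. The p-values weigh each difference only against the spread between these libraries, which may be technical spread.

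**Figure D1:**
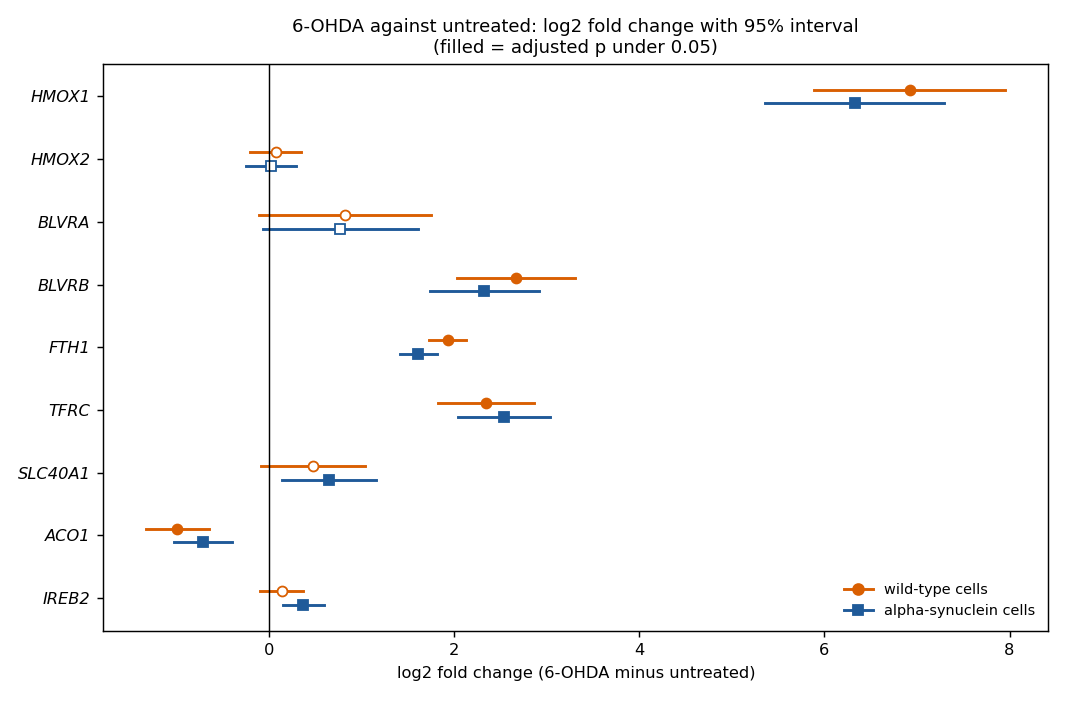
Log2 fold change of each gene after 6-OHDA against untreated cells (horizontal axis) in wild-type (circles) and alpha-synuclein cells (squares), with 95% intervals from edgeR; filled symbols have an adjusted p under 0.05. HMOX1 stands farthest to the right in both genotypes, at 6.92 and 6.33, and ACO1 is the gene to the left of 0.

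HMOX1, on chr22:35380361-35394214 (plus strand), was barely detected without toxin. Untreated wild-type libraries 1 to 4 stood at 1.31, 0.730, 0.187 and 0.541 CPM, which is 8, 4, 1 and 5 counts, and untreated alpha-synuclein libraries at 1.14, 0.207, 0.615 and 0.457 CPM. With 6-OHDA the wild-type libraries stood at 90.6, 88.6, 89.3 and 70.6 CPM. The alpha-synuclein libraries with 6-OHDA stood at 62.1, 50.97, 53.8 and 14.3 CPM. All 8 treated libraries lay above all 8 untreated ones, and the lowest treated value was that of replicate 4. In wild-type cells the fold change was 121 (95% interval 59.3 to 248), a log2 change of 6.92 ± 0.50 (SE, n = 4 and 4, edgeR adjusted p = 2.59e-10). In alpha-synuclein cells it was 80.3 (41.1 to 157), a log2 change of 6.33 ± 0.47 (n = 4 and 4, edgeR adjusted p = 7.38e-10), and the log2 change without replicate 4 was 6.68. Counts were few in untreated libraries, where 3 counts correspond to 0.168 to 0.561 CPM. Without replicate 4, which is outside the wild-type comparison but enters the shared estimate of spread, the wild-type interval was 77.1 to 192. The cause of the wide intervals was not tested.

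HMOX2, on chr16:4474690-4510347 (plus strand), stayed within 21.2 to 34.3 CPM over all 22 libraries. Its log2 change after 6-OHDA was 0.07 ± 0.13 in wild-type and 0.02 ± 0.13 in alpha-synuclein cells, with 95% intervals of -0.21 to 0.35 and -0.24 to 0.29. The order of its group means ran from 24.0 to 27.8 CPM, and every group overlapped its neighbour in that order.

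Levels of different genes were compared per kilobase, using 1 annotated transcript per gene, an assumption since the transcripts expressed are not known from a gene-level table. HMOX1 made up 3.11% ± 2.54 (SD, n = 4) of the summed haem oxygenase level per kilobase in untreated wild-type cells and 78.1% ± 2.92 after 6-OHDA. In alpha-synuclein cells the share was 2.82% ± 1.68 untreated and 64.8% ± 16.9 after 6-OHDA, with 39.8% in replicate 4 and 70.2 to 76.7% in the other 3 libraries. The summed level of both enzymes rose from 12.9 to 59.5 CPM per kilobase in wild-type and from 11.5 to 36.2 in alpha-synuclein cells. HMOX2 thus formed most of the haem oxygenase mRNA in every untreated library, and HMOX1 most of it in every treated library except replicate 4.

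**Figure D2:**
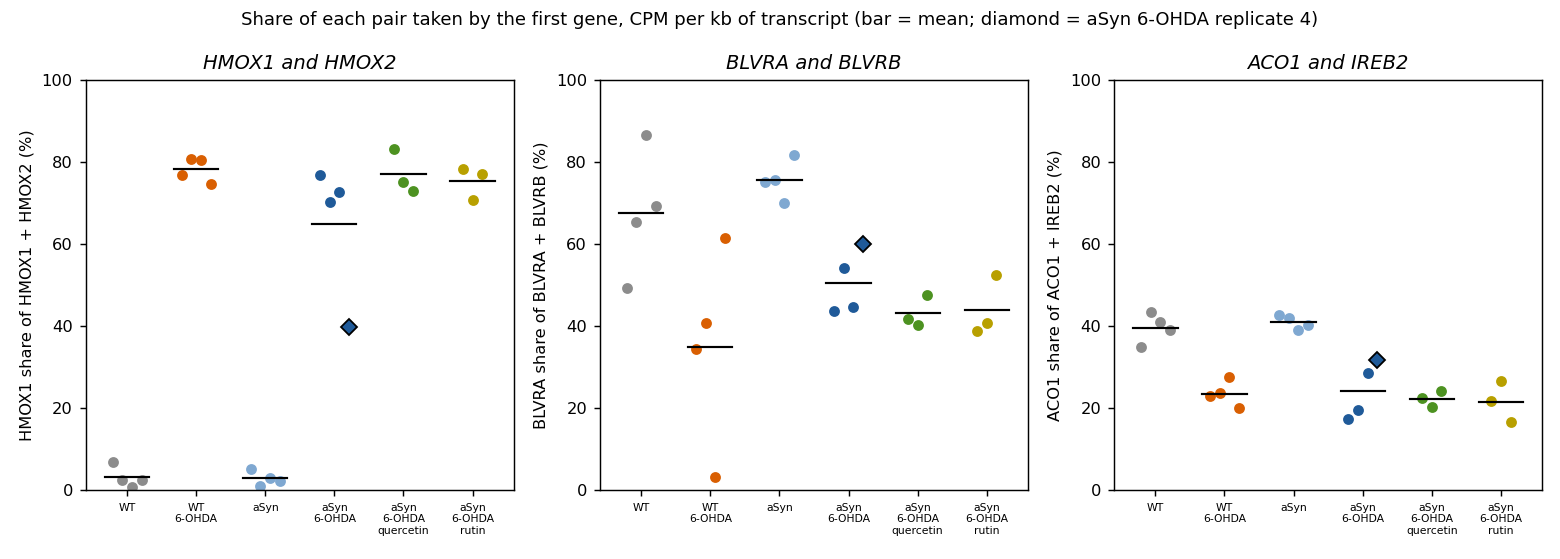
Share in percent of the summed level per kilobase of transcript (vertical axis) held by the first gene of 3 pairs of related genes, by library and group; bars are group means and the diamond is alpha-synuclein 6-OHDA replicate 4. The HMOX1 share goes from a mean of 3.11% to 78.1% in wild-type cells and the ACO1 share from 39.6% to 23.5%.

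The biliverdin reductase genes differed in how clear their values were. BLVRB, on chr19:40447765-40465840 (minus strand), stood at 2.29, 2.19, 1.12 and 1.08 CPM in untreated wild-type and 1.00, 1.52, 1.73 and 0.914 CPM in untreated alpha-synuclein libraries. After 6-OHDA it stood at 9.19, 13.6, 10.2 and 8.95 CPM in wild-type and 6.65, 5.74, 10.1 and 4.83 CPM in alpha-synuclein libraries. Treated and untreated libraries did not overlap in either genotype, and BLVRB rose 6.36-fold (log2 2.67 ± 0.31, n = 4 and 4, edgeR adjusted p = 2.09e-07) and 5.02-fold (log2 2.33 ± 0.28, n = 4 and 4, edgeR adjusted p = 8.25e-07). BLVRA, on chr7:43758680-43807342 (plus strand), ranged from 2.94 to 9.53 CPM in untreated and from 0.465 to 18.9 CPM in treated wild-type libraries. Its lowest value, in wild-type 6-OHDA replicate 3, was 1 count. In alpha-synuclein cells BLVRA stood at 6.81 to 10.8 CPM in treated libraries, and every untreated library lay below these. The BLVRA log2 change was 0.82 ± 0.45 in wild-type (edgeR adjusted p = 0.131) and 0.77 ± 0.40 in alpha-synuclein cells (edgeR adjusted p = 0.122). Without wild-type 6-OHDA replicate 3 the wild-type value was 1.14 with an edgeR adjusted p of 0.0119. Without untreated wild-type replicate 3 it was 1.25 with 0.0305, so whether BLVRA passes in wild-type cells depends on single libraries. In alpha-synuclein cells, leaving out any library of the compared groups gave no call (log2 0.68 to 0.90, edgeR adjusted p of 0.106 to 0.215). Fitted on the compared groups alone, the alpha-synuclein value was 0.81 with an edgeR adjusted p of 0.00821. Whether BLVRA passes there thus depends on which other groups enter the fit, and the cause was not tested. The BLVRA share of the summed level per kilobase was 67.5% ± 15.3 untreated and 34.9% ± 24.0 treated in wild-type cells, and 75.5% ± 4.74 and 50.5% ± 7.85 in alpha-synuclein cells. This share compares mRNA only, and bilirubin and the activity of either enzyme were not measured.

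FTH1, the ferritin heavy chain that oxidises iron for storage, lies on chr11:61959718-61967660 (minus strand) and had the highest level of the members in every group, also per kilobase. Untreated wild-type libraries stood at 326, 425, 369 and 355 CPM and untreated alpha-synuclein libraries at 382, 394, 395 and 334 CPM. After 6-OHDA wild-type libraries stood at 1429.7, 1358, 1489 and 1349 CPM and alpha-synuclein libraries at 1069.6, 979, 1305 and 1253 CPM. Treated and untreated libraries were far apart, and replicate 4 was not low for this gene. FTH1 rose 3.81-fold in wild-type (log2 1.93 ± 0.10, n = 4 and 4, edgeR adjusted p = 1.44e-12) and 3.06-fold in alpha-synuclein cells (log2 1.61 ± 0.09, n = 4 and 4, edgeR adjusted p = 3.04e-11). Rows of 25 FTH1 pseudogenes held 0.311 to 1.82% of the counts of FTH1 and its pseudogenes together, and summing them with FTH1 left the wild-type log2 change at 1.92.

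TFRC, on chr3:196027183-196082189 (minus strand), carries the 4 matching 3′ UTR hairpins. Untreated wild-type libraries stood at 39.8, 23.9, 21.5 and 22.3 CPM and untreated alpha-synuclein libraries at 23.6, 23.3, 25.5 and 24.6 CPM. With 6-OHDA wild-type libraries stood at 123.7, 128, 157 and 142 CPM and alpha-synuclein libraries at 168, 153, 191 and 60.3 CPM. All treated libraries lay above all untreated ones, with replicate 4 nearest to them. TFRC rose 5.09-fold in wild-type (log2 2.35 ± 0.25, n = 4 and 4, edgeR adjusted p = 7.23e-08) and 5.81-fold in alpha-synuclein cells (log2 2.54 ± 0.24, n = 4 and 4, edgeR adjusted p = 2.36e-08), or 7.05-fold without replicate 4. FTH1, with its hairpin in the 5′ UTR, and TFRC, with hairpins in the 3′ UTR, thus both rose in mRNA level. Protein and translation were not measured.

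SLC40A1, on chr2:189560579-189583758 (minus strand), exports iron and was low throughout, at 1.83 to 6.65 CPM over the 22 libraries. Its log2 change after 6-OHDA was 0.48 ± 0.27 in wild-type (n = 4 and 4, edgeR adjusted p = 0.143) and 0.65 ± 0.24 in alpha-synuclein cells (n = 4 and 4, edgeR adjusted p = 0.0344). Treated and untreated libraries overlapped in both genotypes. The alpha-synuclein call was lost without untreated replicate 1 or 4 or 6-OHDA replicate 1 or 3, with edgeR adjusted p of 0.0622 to 0.121 and log2 values of 0.46 to 0.63. It was also lost at 0.183 (log2 0.50) without the 2 untreated libraries that carry several barcode numbers, at 0.0781 (log2 0.62) without the low-count filter and at 0.0844 (log2 0.68) with the compared groups alone.

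**Figure D3:**
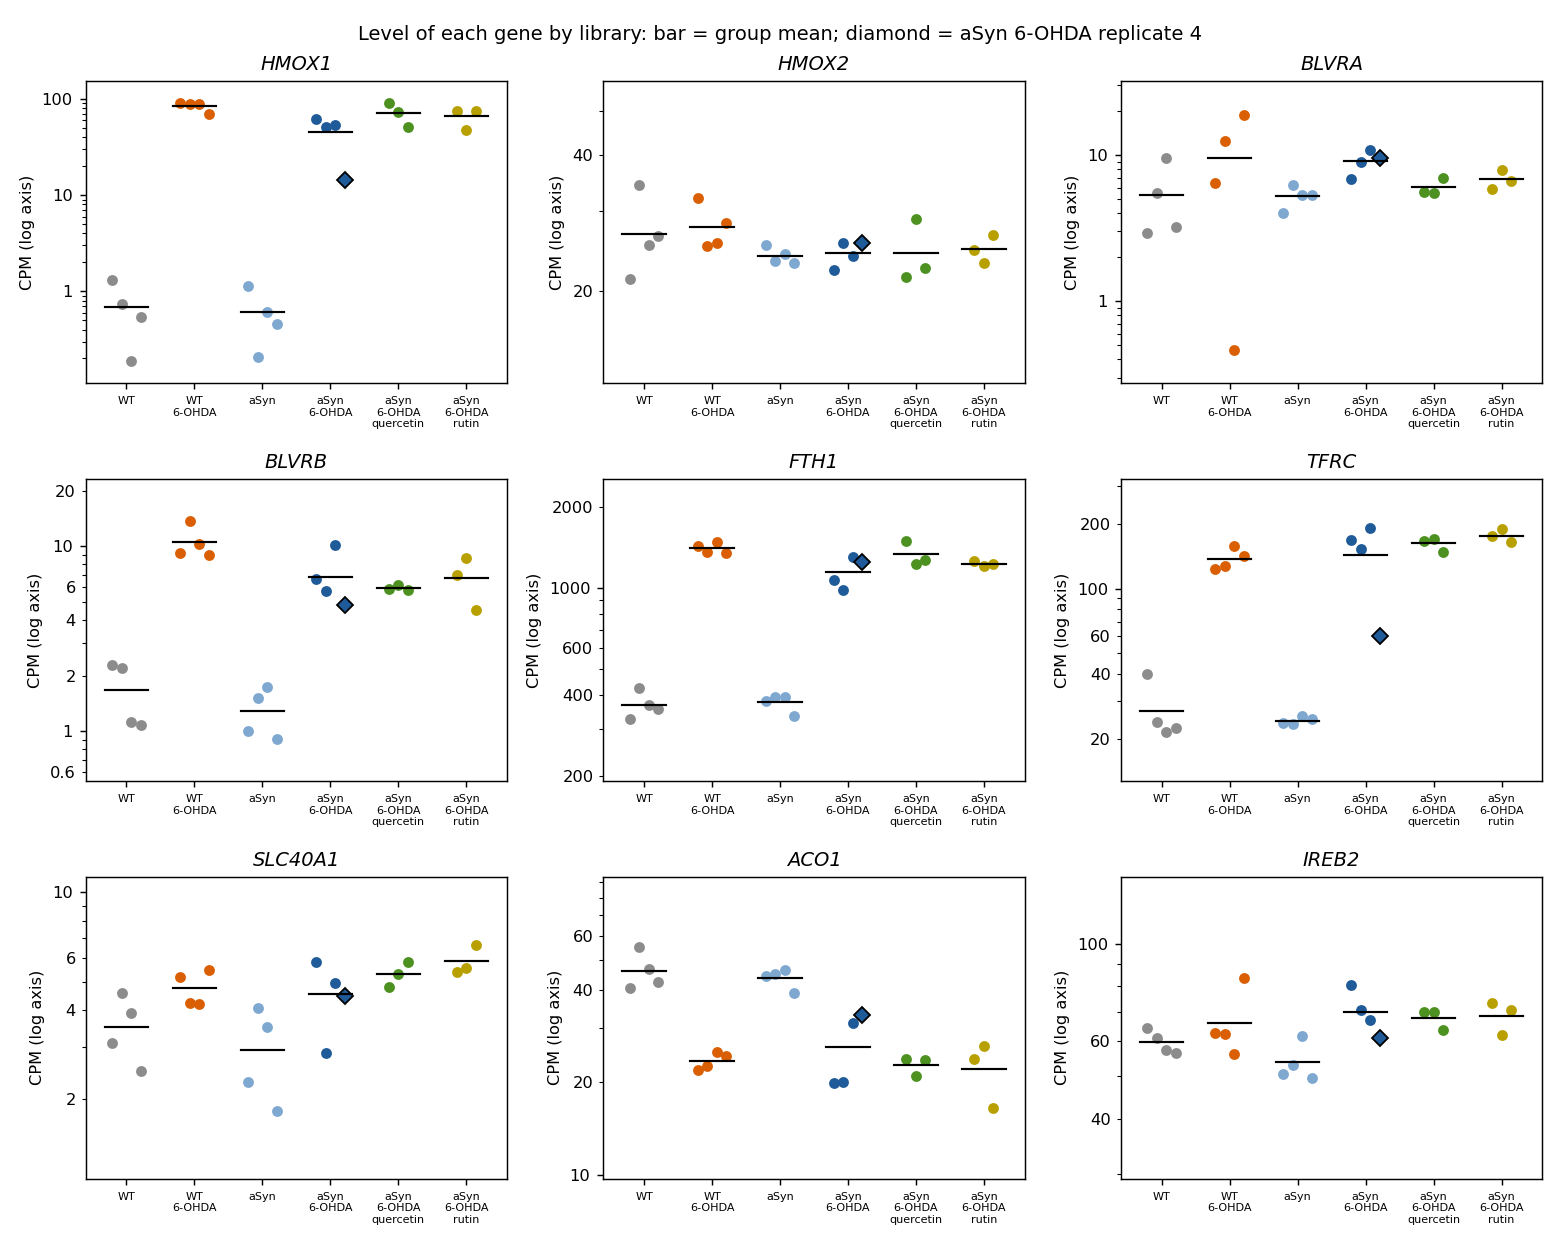
Level in CPM (vertical log axis, one scale per gene) of the 9 measured genes in each library by group; bars are group means and the diamond is alpha-synuclein 6-OHDA replicate 4. HMOX1, BLVRB, FTH1 and TFRC are higher in all treated than in all untreated libraries, ACO1 is lower, and HMOX2 stays between 21.2 and 34.3 CPM.

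The iron regulatory proteins moved differently. ACO1, the cytosolic aconitase that becomes an RNA-binding protein when it lacks its iron-sulfur cluster, lies on chr9:32384603-32454769 (plus strand). It stood at 40.7, 55.1, 46.9 and 42.4 CPM in untreated wild-type and 44.3, 45.1, 46.5 and 39.1 CPM in untreated alpha-synuclein libraries. With 6-OHDA it stood at 21.9, 22.7, 25.1 and 24.4 CPM in wild-type and 19.9, 20.1, 31.3 and 33.2 CPM in alpha-synuclein libraries. Every treated library was below every untreated one, and replicates 3 and 4 of the alpha-synuclein 6-OHDA group were the highest of the treated. The log2 change was -0.99 ± 0.16 in wild-type (n = 4 and 4, edgeR adjusted p = 2.57e-05) and -0.71 ± 0.15 in alpha-synuclein cells (n = 4 and 4, edgeR adjusted p = 0.000547), so that 0.504 and 0.610 of the untreated level remained. IREB2, on chr15:78437431-78501456 (plus strand), whose protein is degraded when iron is plentiful, ranged from 49.7 to 64.5 CPM in untreated and 56.3 to 83.6 CPM in treated libraries without compound. Its log2 change was 0.14 ± 0.11 in wild-type (n = 4 and 4, edgeR adjusted p = 0.313) and 0.37 ± 0.11 in alpha-synuclein cells (n = 4 and 4, edgeR adjusted p = 0.00714), with overlapping libraries in both. Per kilobase, ACO1 held 39.6% ± 3.63 of the pair in untreated and 23.5% ± 3.14 in treated wild-type cells, and 41.0% ± 1.63 and 24.2% ± 6.86 in alpha-synuclein cells.

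Without toxin no member passed the test between genotypes. In untreated cells 0 of 9 members were called between alpha-synuclein and wild-type cells by edgeR, 0 had an unadjusted p under 0.05 and 0 were called by DESeq2, where 0.651% of all genes were called (0.373% higher, 0.277% lower), or 1.2% without alpha-synuclein 6-OHDA replicate 4. The log2 differences (alpha-synuclein minus wild type) ran from -0.36 for HMOX1 to 0.04 for BLVRA. FTH1 differed by 0.03 (95% interval -0.16 to 0.22), ACO1 by -0.08 (-0.38 to 0.23) and TFRC by -0.14 (-0.66 to 0.37). The intervals were wider for BLVRB at -0.31 (-0.99 to 0.38) and BLVRA at 0.04 (-0.83 to 0.90), and widest for HMOX1 (-2.21 to 1.48). SLC40A1, at -0.22 (-0.74 to 0.30), had an interval about as wide as that of TFRC. For BLVRB, BLVRA, HMOX1, SLC40A1 and TFRC moderate differences were not detectable in this fit. Without alpha-synuclein 6-OHDA replicate 4, of neither group, the intervals were -1.59 to 0.87 for HMOX1 and -0.44 to 0.16 for TFRC. The cause of the widths was not tested.

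Under 6-OHDA, HMOX1 and FTH1 were lower in alpha-synuclein than in wild-type cells: 2 of 9 members were called, both lower, where 27.3% of all genes were called (14.4% higher, 12.9% lower). HMOX1 averaged 45.3 ± 21.2 CPM (SD, n = 4) against 84.8 ± 9.48 CPM (n = 4), a log2 difference of -0.96 ± 0.31 (edgeR adjusted p = 0.0230), and the 4 alpha-synuclein libraries lay below the 4 wild-type ones. Without replicate 4 it was -0.61 ± 0.21 (edgeR adjusted p = 0.0350). FTH1 averaged 1152 ± 153 against 1406 ± 65.6 CPM, a log2 difference of -0.29 ± 0.09 (n = 4 and 4, edgeR adjusted p = 0.0240), also without overlap. Both calls depend on single libraries and on the fit. The HMOX1 call was lost without wild-type 6-OHDA replicate 1, 2 or 3 (edgeR adjusted p of 0.0615 to 0.0778, log2 -0.89 to -0.87), with the compared groups alone (edgeR adjusted p = 0.0732, log2 -0.94) and with DESeq2 (DESeq2 adjusted p = 0.0738, log2 -0.89). The FTH1 call was lost without any one of the 4 wild-type 6-OHDA libraries or without alpha-synuclein 6-OHDA replicate 1 or 2 (0.0536 to 0.152, log2 -0.27 to -0.19), and without the low-count filter (0.129, log2 -0.22). BLVRB missed the threshold at -0.65 ± 0.27 (n = 4 and 4, edgeR adjusted p = 0.0761) and passed it without alpha-synuclein 6-OHDA replicate 3, at -0.85 (0.0241). Lane follows the groups in this comparison and cannot be told apart from them.

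Tested directly, the response to 6-OHDA differed between genotypes for 0 of 9 members by edgeR, where 21.6% of all genes were called (11.2% higher, 10.5% lower). At an unadjusted p under 0.05 there was 1, FTH1, whose response was smaller in alpha-synuclein cells by a log2 value of -0.32 ± 0.13 (edgeR adjusted p = 0.0898), and DESeq2 called 0. Without untreated wild-type replicate 2 that value was -0.39 and passed, with an edgeR adjusted p of 0.0296. For HMOX1 the difference was -0.60 with a 95% interval of -2.58 to 1.39, and for TFRC 0.19 with -0.51 to 0.89. Lane follows part of this contrast too.

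Quercetin is a flavonol, and rutin is quercetin that carries the sugar rutinose. Whether their doses and times match is not known from these sources. Added to 6-OHDA in alpha-synuclein cells, quercetin left 0 of 9 members called by edgeR (2 at an unadjusted p under 0.05, 0 by DESeq2), where 2.53% of all genes were called (0.56% higher, 1.97% lower). Without alpha-synuclein 6-OHDA replicate 4, 84 genes in place of 420 were called with quercetin. Rutin left 0 called (0 at an unadjusted p under 0.05, 0 by DESeq2), where 0% of all genes were called. HMOX1 stood at 90.0, 73.4 and 51.6 CPM with quercetin and at 75.4, 47.3 and 75.9 CPM with rutin, and both ranges overlapped that of 6-OHDA alone. The HMOX1 log2 difference from 6-OHDA alone was 0.70 ± 0.32 for quercetin (n = 3 and 4, edgeR adjusted p = 0.258) and 0.58 ± 0.32 for rutin (n = 3 and 4, edgeR adjusted p = 0.549). These values leaned on the replicate that stood apart: without alpha-synuclein 6-OHDA replicate 4 they were 0.35 (95% interval -0.09 to 0.79, edgeR adjusted p = 0.556) and 0.23 (-0.22 to 0.68, edgeR adjusted p = 0.831).

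FTH1 stood at 1497, 1232 and 1269 CPM with quercetin and 1257, 1208 and 1231 CPM with rutin, with log2 differences from 6-OHDA alone of 0.21 (95% interval 0.00 to 0.42, edgeR adjusted p = 0.286) and 0.10 (-0.11 to 0.30, edgeR adjusted p = 0.794). TFRC stood at 167, 171 and 148 CPM with quercetin and 176, 189 and 164 CPM with rutin. 6-OHDA replicates 1 to 3 stood at 153 to 191 CPM and replicate 4 at 60.3 CPM. The TFRC log2 difference was 0.20 (95% interval -0.29 to 0.70) with quercetin and 0.32 (-0.17 to 0.82) with rutin. Without replicate 4 it was -0.07 and 0.05. BLVRB, ACO1 and IREB2 differed from 6-OHDA alone by log2 values of -0.16, -0.23 and -0.04 with quercetin and 0.07, -0.23 and -0.02 with rutin. Without alpha-synuclein 6-OHDA replicate 4 these were -0.34, -0.07 and -0.10 with quercetin and -0.11, -0.06 and -0.09 with rutin. BLVRA differed by -0.57 with quercetin and -0.40 with rutin, or -0.53 and -0.36 without that replicate. SLC40A1 differed by 0.20 and 0.31, or 0.17 and 0.29 without it. Every member with a call after 6-OHDA in alpha-synuclein cells thus kept a group mean on the treated side of the untreated mean with either compound.

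The compounds were compared with each other as 1 pair over all 16601 tested genes, and 0.00602% of genes (1 gene) were called. Without alpha-synuclein 6-OHDA replicate 4, a library of neither group that enters the shared estimate of spread, 58 genes (0.353%) were called. Of the members 0 of 9 were called by edgeR, 0 had an unadjusted p under 0.05 and DESeq2 called 0. The quercetin minus rutin difference was 0.12 for HMOX1 (95% interval -0.57 to 0.81), 0.11 for FTH1 (-0.11 to 0.33), -0.12 for TFRC (-0.65 to 0.40) and -0.00 for ACO1 (-0.37 to 0.37) on the log2 scale. Without alpha-synuclein 6-OHDA replicate 4 the interval was -0.31 to 0.55 for HMOX1 and -0.43 to 0.18 for TFRC. All of these intervals leave room for differences of either sign, and with all libraries that of FTH1 was the narrowest.

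**Figure D4:**
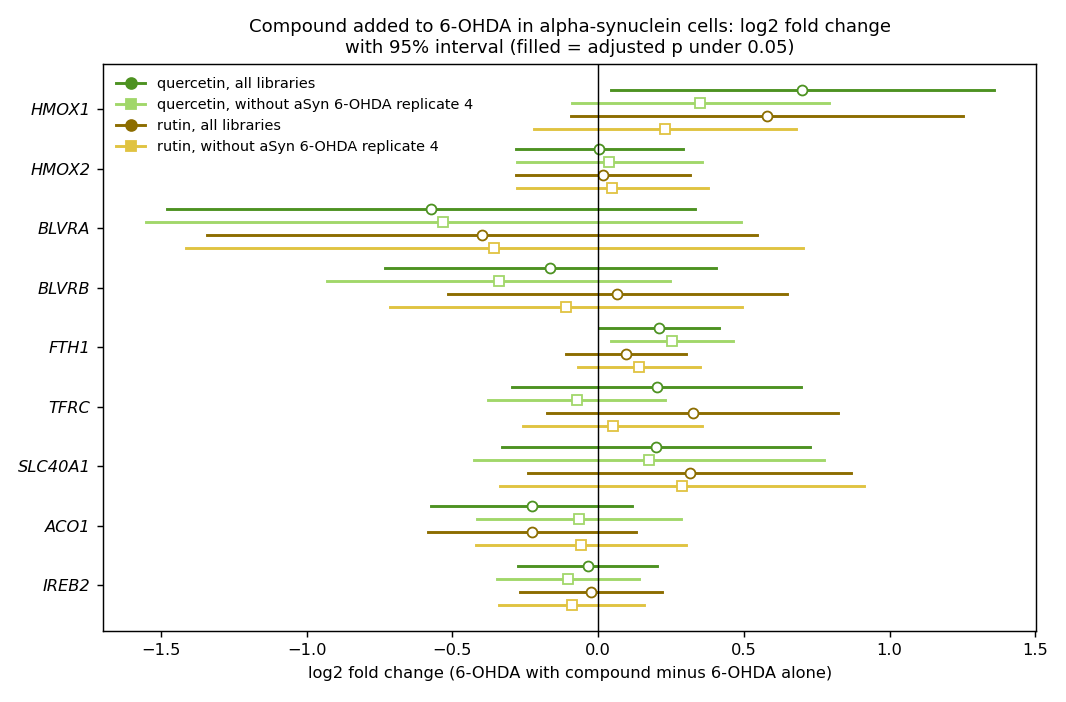
Log2 fold change with 95% interval of each gene when quercetin or rutin was added to 6-OHDA in alpha-synuclein cells, against 6-OHDA alone (horizontal axis), with all libraries (circles) and without alpha-synuclein 6-OHDA replicate 4 (squares); open symbols have an adjusted p of 0.05 or more. No symbol is filled, and leaving out replicate 4 moves HMOX1 from 0.70 to 0.35 for quercetin and from 0.58 to 0.23 for rutin.

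The wider pathway was read from 9 lists of 89 genes, of which 80 were tested. After 6-OHDA 32 were called higher and 21 lower in wild-type cells, and 22 higher and 19 lower in alpha-synuclein cells (26 and 22 without replicate 4). These shares of calls lie above and near the 52% and 47.1% of all genes. In untreated cells 0 of the 80 were called between genotypes by edgeR (7 at an unadjusted p under 0.05), against 0.651% of all genes. With quercetin 2 were lower, SLC22A17, a lipocalin receptor, by -0.55 ± 0.12 (n = 3 and 4, edgeR adjusted p = 0.0212) and MMS19, a targeting factor for iron-sulfur proteins, by -0.33 ± 0.08 (n = 3 and 4, edgeR adjusted p = 0.0385), and 0 without replicate 4. Rutin gave 0 by edgeR (10 at an unadjusted p under 0.05), as did quercetin against rutin (10). Under 6-OHDA 8 were higher and 15 lower in alpha-synuclein than in wild-type cells, a share near the 27.3% of all genes called, and lane follows these groups. The single lists hold 5 to 21 tested genes, and their counts are to be read against the 52% (wild-type) and 47.1% (alpha-synuclein) of all genes called after 6-OHDA. Haem transport and iron uptake had smaller shares of calls than all genes in both genotypes, as did export and systemic genes in alpha-synuclein cells. The other shares were larger. In wild-type cells, cytosolic assembly had 5 higher and 3 lower of 9, and haem and redox regulators 6 and 2 of 9. Without replicate 4, export and systemic genes had 3 higher and 1 lower of 5 in alpha-synuclein cells, against 51.9% of all genes. Iron uptake then had 3 and 3 of 10 in wild-type cells, against 53.8%. Whether any list differs from all genes was not tested.

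**Figure D5:**
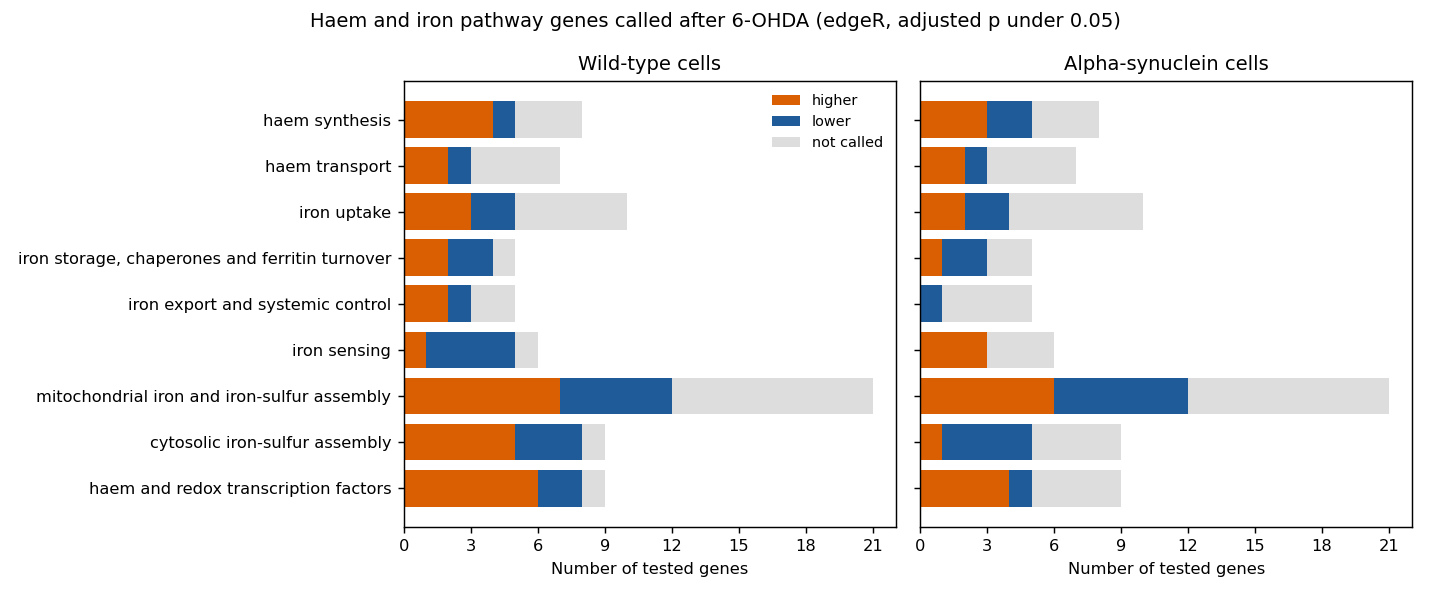
Number of tested genes (horizontal axis) called higher, called lower or not called after 6-OHDA by edgeR in 9 haem and iron gene lists, in wild-type cells (left) and alpha-synuclein cells (right). The iron-sensing list has 1 higher and 4 lower in wild-type cells and 3 higher and 0 lower in alpha-synuclein cells.

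Among regulators of haem and redox genes, 6 of 9 rose and 2 fell in wild-type cells, and 4 rose and 1 fell in alpha-synuclein cells. Of all tested genes, 52% and 47.1% were called. MAFG and MAFF, small MAF partners of both NFE2L2 and BACH1, rose by log2 values of 3.51 and 2.66 in wild-type and 1.92 and 2.12 in alpha-synuclein cells. BACH1, the haem-sensing repressor of HMOX1, rose by 0.90 ± 0.12 (n = 4 and 4, edgeR adjusted p = 1.12e-06) and 1.02 ± 0.11 (n = 4 and 4, edgeR adjusted p = 1.67e-07). NFE2L2, the activator, rose by 0.61 ± 0.11 (n = 4 and 4, edgeR adjusted p = 4.87e-05) and 0.82 ± 0.10 (n = 4 and 4, edgeR adjusted p = 1.03e-06). KEAP1, which marks NFE2L2 for degradation, rose by 0.70 ± 0.11 in wild-type cells (n = 4 and 4, edgeR adjusted p = 1.07e-05), and its value in alpha-synuclein cells was 0.18 ± 0.10 (n = 4 and 4, edgeR adjusted p = 0.159). The KEAP1 responses differed by -0.52 ± 0.15 (edgeR adjusted p = 0.0161), a call lost without wild-type 6-OHDA replicate 1 (-0.45, 0.0508). CUL3, the ubiquitin ligase scaffold that works with KEAP1, fell by 1.05 on the log2 scale in wild-type cells.

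In haem synthesis, 4 of 8 tested genes rose and 1 fell in wild-type cells, and 3 rose and 2 fell in alpha-synuclein cells. Over all tested genes, 52% and 47.1% were called. ALAS1, which makes the first committed precursor, rose by 0.64 and 0.33, UROD by 0.85 and 0.64, and UROS fell by 0.79 and 0.54 on the log2 scale. Of 7 haem transport genes 2 rose and 1 fell in each genotype, a smaller share of calls than over all genes. ABCB6, a porphyrin transporter, rose by 1.43 and 1.39, and SLC48A1, which moves haem out of lysosomes, by 1.37 and 1.77. FLVCR1, a plasma membrane haem exporter, was the gene that fell in wild-type cells (-1.13), and SLC46A1, a haem and folate carrier, the one in alpha-synuclein cells, where it fell by 1.00.

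Iron uptake beyond TFRC was mixed, with 3 of 10 tested genes higher and 2 lower in wild-type cells and 2 higher and 2 lower in alpha-synuclein cells. The shares called over all genes were 52% and 47.1%. SLC39A14, an importer of iron not bound to transferrin, rose by 1.65 and 0.72, and STEAP3, the endosomal ferrireductase that works with TFRC, fell by 1.63 and 1.25 on the log2 scale. Of 5 storage and ferritin turnover genes, 2 were higher and 2 lower in wild-type cells and 1 higher and 2 lower in alpha-synuclein cells. NCOA4, the receptor that carries ferritin to lysosomes, fell by 0.72 in wild-type and 0.26 in alpha-synuclein cells. Of 5 export and systemic genes, 2 were higher and 1 lower in wild-type and 0 higher and 1 lower in alpha-synuclein cells, where leaving out replicate 4 gave 3 and 1. TMPRSS6, a protease of the hepcidin pathway, fell by 0.96 and 1.21.

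Of the 6 iron-sensing genes, which include the degradation machinery of IREB2 and the hypoxia factors, 1 was higher and 4 lower in wild-type cells and 3 higher and 0 lower in alpha-synuclein cells (3 and 1 without replicate 4). Here too, 52% and 47.1% of all tested genes were called. FBXL5, the iron-binding receptor that marks IREB2 for degradation, fell by 1.00 ± 0.15 in wild-type cells (n = 4 and 4, edgeR adjusted p = 6.82e-06), and its value in alpha-synuclein cells was -0.13. EPAS1, a hypoxia factor whose mRNA also carries a known iron-responsive element, rose by 2.31 and 2.11 from 0.424 and 0.286 CPM. In mitochondrial iron and iron-sulfur assembly 7 of 21 genes rose and 5 fell in wild-type cells, and 6 rose and 6 fell in alpha-synuclein cells. CISD2, an iron-sulfur protein of the outer mitochondrial and reticulum membranes, rose by 1.25 and 1.34, and NFS1, the cysteine desulfurase, fell by 1.12 and 0.89. In cytosolic assembly 5 of 9 rose and 3 fell in wild-type cells, and 1 rose and 4 fell in alpha-synuclein cells. MMS19 fell by 0.43 and 0.45 on the log2 scale.

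As a description of pattern, the tested protein-coding genes with the highest Pearson r to HMOX1 over the 22 libraries in log2 CPM were IRF1 (0.994), CDKN1A (0.990) and SLC3A2 (0.989). For TFRC they were BEST1 (0.984), ERBB3 (0.983) and RND1 (0.980). For SLC40A1 they were RPL17 (0.839), SEPHS2 (0.834) and RAP2B (0.832). The 22 points share depth and fall into treated and untreated libraries, so any gene with a large response to 6-OHDA scores high.

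Erythroid markers, of the cells with the most haem, summed to 1.31 to 3.36 CPM in untreated and 2.04 to 5.25 CPM in treated libraries of all groups with 6-OHDA, with HBB at 0 counts in every group. The 1 tested gene of this list was called higher after 6-OHDA in alpha-synuclein cells (log2 1.62) and was not called in wild-type cells (log2 1.16). Microglial and macrophage markers, from cells rich in HMOX1 and SLC40A1, summed to 7.29 to 10.5 CPM in untreated and 10.8 to 22.5 CPM in treated libraries, and 2 of their 4 tested genes rose after 6-OHDA in each genotype. AIF1, which defines microglia, stood at 0 counts in untreated libraries and averaged 0.230 CPM or less in each treated group. Astrocyte markers summed to 37.9 to 56.7 CPM in untreated and 30.3 to 62.1 CPM in treated libraries, and of their 3 tested genes GFAP and ALDH1L1 rose in both genotypes while GJA1 fell in wild-type cells. Markers of cycling cells summed to 54.0 to 116.2 CPM in untreated and 13.1 to 65.8 CPM in treated libraries, and 3 of 5 (MKI67, CDK1 and CCNB1) fell in each genotype. Oligodendrocyte markers summed to 24.0 to 34.1 CPM in untreated and 11.2 to 19.6 CPM in treated libraries, and of 3 tested genes MBP fell in both genotypes and SOX10 rose in alpha-synuclein cells. The part of these markers in the members' levels was not tested.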

How the data were processed

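The authors deposited estimated counts per Ensembl gene, as whole numbers without normalisation. The submitters' processing notes name the build GRCh38, the trimmer Trimmomatic 0.38 and the pseudoaligner kallisto 0.46.2. Not given in the sources used here are the step from transcripts to genes, the annotation release and the use of strand. Near-identical and antisense genes are therefore uncertain. Per the labels' protocols, an InnuPREP kit was used for extraction and an MGIEasy kit for libraries.

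All 22 columns were matched by name. Counts were rounded and tested in R 4.3.3 with edgeR 4.0.16: filterByExpr with a minimum count of 10 (16601 of 34679 genes kept, 0.174% of counts set aside), TMM scaling, and glmQLFit and glmQLFTest on the 6 group means over all libraries. The threshold was 0.05 after Benjamini-Hochberg adjustment, and each SE was the log2 fold change over the square root of F. The fit was tested on simulated counts. Alternatives were RLE and upper-quartile scaling, no filter, DESeq2 1.42.0, the compared groups alone, a replicate block, FTH1 summed with its pseudogenes, no libraries with several barcode numbers, and each replicate left out. The pathway counts without alpha-synuclein 6-OHDA replicate 4, and the gene counts without it in comparisons that do not hold its group, were added after seeing the data. Replicate pairs differed by more than sampling noise (chi-square per degree of freedom 2.73 to 23.6). Intervals and floors cover counting error or spread between libraries only.

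Members and lists were chosen with earlier results of these data known. Of the lists, the text names up to 4 called genes with the smallest adjusted p in either 6-OHDA comparison or in the compound comparison described, a choice among them made after their values were seen, and NFE2L2, KEAP1 and BACH1 by rule. The likeness rule took the 3 protein-coding genes of highest r with a mean of 5 CPM or more. Positions and UTRs came from GENCODE 29 on GRCh38, which matched 34658 IDs (99.9%) without their version. Values of some genes examined are not reported here.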

Additional observations from a re-analysis of the deposited data

Results flagged for a closer look

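In groups of 4 libraries, 48 gene and group pairs were checked for a library far from the rest, and 2 stood out, where chance gives about 1 in 20. HMOX1 in wild-type 6-OHDA replicate 4 was 70.6 CPM, against 88.6 to 90.6 CPM in the other 3 libraries. TFRC in untreated wild-type replicate 1 was 39.8 CPM, against 21.5 to 23.9 CPM in the others. The check uses the gap to the nearest library, and alpha-synuclein 6-OHDA replicate 4, at 14.3 CPM for HMOX1 and 60.3 CPM for TFRC, was not among the 2.

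The response to 6-OHDA differed between genotypes for 21 of the 80 pathway genes by the interaction test in edgeR, 9 with a higher and 12 with a lower value in alpha-synuclein cells, where 21.6% of all genes were called; lane follows part of the contrast and cannot be told apart from it. Lower on the log2 scale were MAFG (-1.59), SLC46A1 (-1.04), SLC39A14 (-0.93), NUBP2 (-0.75), IBA57 (-0.70), CISD3 (-0.68), CIAO3 (-0.66), NDOR1 (-0.58), KEAP1 (-0.52), PCBP1 (-0.47), ABCB8 (-0.46) and ALAS1 (-0.31). Among the higher were FBXL5 (0.86), CUL3 (0.84), TAX1BP1 (0.62), GLRX5 (0.50), CDC42BPA (0.48), NCOA4 (0.47), SLC11A2 (0.44) and SKP1 (0.42).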

How the results depend on the processing

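Over the alternatives, 1480 member and regulator values kept their side of the threshold, 20 lost a call and 13 gained one. A change of sign with a call in either fit occurred 0 times. The 1480 include uncalled values whose sign changed, such as HMOX2 after 6-OHDA in wild-type cells, at -0.04 to 0.21 with a replicate left out. The count of members called kept within 1.5 times in 6 of the 8 comparisons. For alpha-synuclein in 6-OHDA cells it went from 2 to 1 without the low-count filter, with the compared groups alone and with DESeq2, the call lost being that of FTH1 in the first and of HMOX1 in the other two, and from 0 to 3 when each replicate was left out. For the interaction it went from 0 to 1 (FTH1) with upper-quartile factors, and from 0 to 1 over the left-out replicates. The cause was not tested. Counts over all genes moved by over 1.5 times as follows. Alpha-synuclein in untreated cells gave 108, and 23 with the compared groups alone, 230 with DESeq2, 11 without the 2 libraries with several barcode numbers and 33 to 239 with a replicate left out (197 without alpha-synuclein 6-OHDA replicate 4, of neither group). The interaction gave 3594, and 1978 without those 2 libraries. Quercetin gave 420, and 2 with the compared groups alone, 969 with DESeq2 and 26 to 896 with a replicate left out. Rutin gave 0, and 2 with RLE, 4 without the filter, 285 with DESeq2 and 0 to 143 with a replicate left out. Quercetin against rutin gave 1, and 30 with upper-quartile factors, 8 without the filter, 19 with the compared groups alone, 77 higher and 39 lower with DESeq2, 0 to 1 with a replicate of the compared groups left out and 58 without alpha-synuclein 6-OHDA replicate 4.

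Replicate numbers gave no sign of pairing the samples: correlations of same-numbered deviations were -0.138 to 0.063, and 0 or 1 library pairs per comparison matched best by number. With so few libraries per group, the check cannot exclude pairing. With the replicate number as a block, members called were 5 and 7 for 6-OHDA in wild-type and alpha-synuclein cells, 2 for alpha-synuclein in 6-OHDA cells and 0 in the other comparisons, as without it, and genes called with quercetin fell from 420 to 120. HMOX1 had few counts in untreated libraries, at 1 to 11.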
